A study of Mus musculus with 6 samples.

Results

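The genes that set, read and remove DNA methylation were followed in the leukemia-initiating cells (LICs) of a mouse acute myeloid leukemia. They are 9 of the 27179 genes of the deposited expression table, and all 9 were found there by symbol. The DNA methyltransferases Dnmt1, Dnmt3a and Dnmt3b write the mark, Uhrf1 guides Dnmt1 to newly replicated DNA, Mbd2 binds methylated CpG sites, Tet1, Tet2 and Tet3 oxidize 5-methylcytosine, and Tdg excises the oxidized bases. The leukemia was made by putting an MLL-AF9 retrovirus that also carries YFP into lineage-negative fetal liver cells, which were then given to lethally irradiated C57BL/6 recipients. YFP+Mac-1+c-Kit+ cells were sorted from bone marrow and their total RNA was sequenced without strand information. By the labels, the donor cells were Asic3+/+ in 3 libraries (WT) and Asic3-/- in 3 (Asic3-null). All 6 libraries share the C57BL/6 strain, the MLL-AF9 vector, the sort and a given age of 8 weeks. The labels do not say whether the libraries of a group came from separate mice, so every p value measures only the spread between these libraries.

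DNA methylation in mammals lies mostly on CpG sites and is copied at each cell division by Dnmt1 with Uhrf1, whereas Dnmt3a and Dnmt3b can methylate sites that carried no mark before. The TET enzymes need oxygen, iron and 2-oxoglutarate, and their products are lost either at replication or through Tdg and base excision repair. In blood formation, DNMT3A and TET2 are known as genes that are often mutated in myeloid disease. The RNA level of such a gene reports neither the activity of its enzyme nor the methylation of any site, and neither was measured here.

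Values are RPKM, reads scaled by gene length and by library size, which allows levels of different genes to be compared. The reads behind them could be recovered from the table. The libraries held between 1947168 and 2381861 reads, so that a single read on 2 kb of gene amounted to 0.21 to 0.257 RPKM. Some features of the whole set bear on the comparison. Asic3 had more reads in the libraries labelled Asic3-null (41, 19 and 30) than in those labelled WT (5, 7 and 2), against the labels, and a value per gene does not show whether the deleted stretch was read. Meis1, a homeobox gene active in MLL-rearranged leukemia, had 14.2, 14.9 and 14 RPKM in the WT libraries and 21.7, 28.2 and 35.3 RPKM in the Asic3-null libraries (log2 fold change 0.91, limma adjusted p = 0.0367). Hoxa9, another homeobox gene of that leukemia, had 73.5, 73.5 and 87.8 RPKM against 67.1, 42.3 and 48.9 RPKM (log2 fold change -0.58, limma adjusted p = 0.151). Of the other 2 genes of this 6-gene LIC list, Fcgr3 had a log2 fold change of -0.47 and Cd34 of 0.22, with adjusted p values from limma of 0.249 and 0.433. Directions are given by label, and the labels themselves were not tested. Xist, the RNA of the inactive X chromosome, had between 1986 and 3026 reads in the libraries labelled Asic3-null and 1 or 2 in those labelled WT, so the sex of the sequenced cells and the genotype cannot be told apart. Both genes of the sort were read in every library, Kit at 8.97 to 20.4 RPKM and Itgam, which encodes the Mac-1 alpha chain, at 12.3 to 89.5 RPKM, with Itgam lower in the libraries labelled Asic3-null (log2 fold change -2.35, adjusted p = 0.00072 from limma). All 12 neutrophil granule genes of a marker list were called lower as well (median log2 fold change -3.18), and their summed level was 4390 to 5340 RPKM in the libraries labelled WT and 326 to 512 RPKM in those labelled Asic3-null, with none of the 12 at 0 in all 6 libraries, Itgb2l at 0 in Asic3-null replicate 1 and Retnlg at 0 in Asic3-null replicate 3. The part that this difference in maturity markers has in the results that follow was not tested. Of the other lineages, 10 erythroid genes, of which 8 were in the table, summed to 2.84–10.3 and 0.972–2.41 RPKM, and 9 T cell genes to 2.36–8.12 and 5.07–5.49 RPKM, in the WT and the Asic3-null libraries. The 8 B cell genes summed to 42.0–50.7 and 38.7–47.6 RPKM, almost all of it Cd79b. Slc4a1, Cd3e, Cd4, Cd8a, Ms4a1 and Blnk were among the markers with no read.

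The 9 genes covered a wide range of levels, and the order of their means was the same in both groups. Mbd2 stood highest with a mean of 90.8 RPKM over the 6 libraries, above 91.3% of the 12037 tested genes. Dnmt1 followed with 73.8 RPKM and Uhrf1 with 54.6 RPKM. Then came Tet3 with 15.1 RPKM, close to the middle of all tested genes at percentile 51.4, Tet2 with 11.2, Dnmt3a with 8.59, Dnmt3b with 6.73 and Tdg with 4.01 RPKM. Tet1 closed the order at 0.207 RPKM. The ranges over the libraries were separate at only 2 steps of this order, between Uhrf1 and Tet3 and between Tdg and Tet1. Dnmt1 exceeded Uhrf1, and Dnmt3b exceeded Tdg, within each of the 6 libraries although the ranges overlapped. Mbd2 exceeded Dnmt1 in 4 of the 6 libraries. Tet3 exceeded Tet2, Tet2 exceeded Dnmt3a and Dnmt3a exceeded Dnmt3b in 5 of 6 each. The order of these neighbours thus did not hold in every library, and their differences were not tested.

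**Figure D1:**
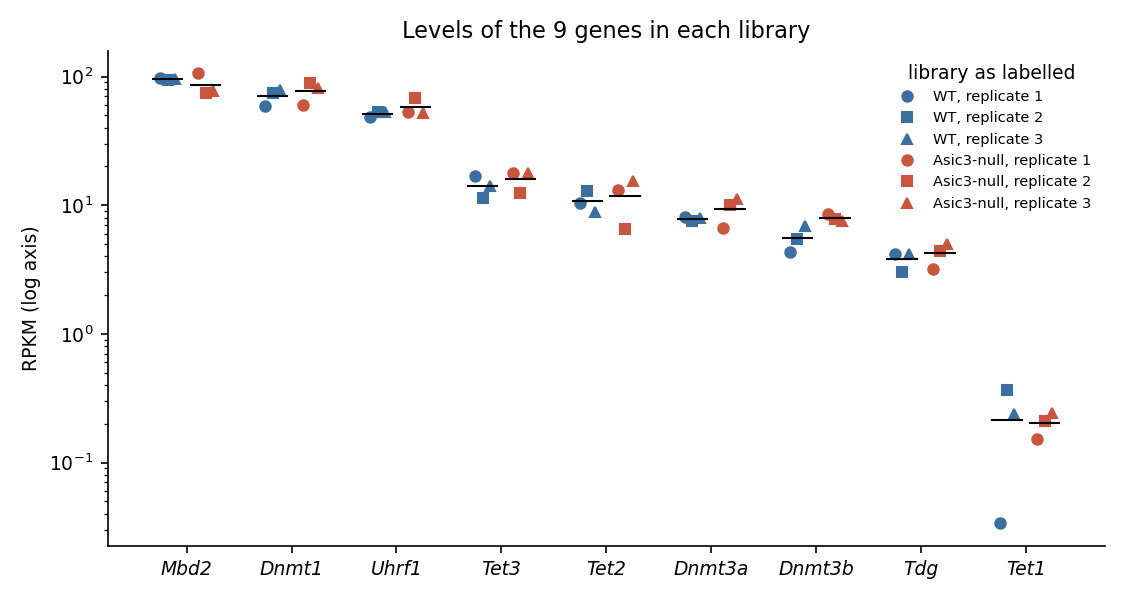
RPKM of the 9 genes on a log axis, with 1 point for each library (blue, labelled WT; red, labelled Asic3-null; symbols give the replicate) and a line at the mean of each group of 3. Mbd2, Dnmt1 and Uhrf1 lie between 48.5 and 106 RPKM, the next 5 genes between 3.03 and 17.8 RPKM, and Tet1 below 0.4 RPKM in every library (highest value 0.365).

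No difference between the groups passed the test in any of the 8 members that could be tested. Tet1 was under the minimum mean of 1 RPKM. With limma on log2(RPKM + 1) over all tested genes, 0 of 8 members had an adjusted p under 0.05, 0 of 8 had an unadjusted p under 0.05, and limma-voom on the recovered reads also called 0. Over all tested genes 3.35% were called, 0.523% in the direction of higher values with the Asic3-null label and 2.82% in the other, and 15.9% had an unadjusted p under 0.05. The log2 fold change was above 0 for 7 of the 8 members, beside 54.5% of all tested genes, and the median was 0.14 for the members and 0.03 for all genes. The summed level of the 9 genes was 249 to 270 RPKM in the libraries labelled WT and 268 to 273 RPKM in those labelled Asic3-null. In sorted bulk RNA, fewer cells of a kind and less RNA per cell cannot be told apart.

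**Figure D2:**
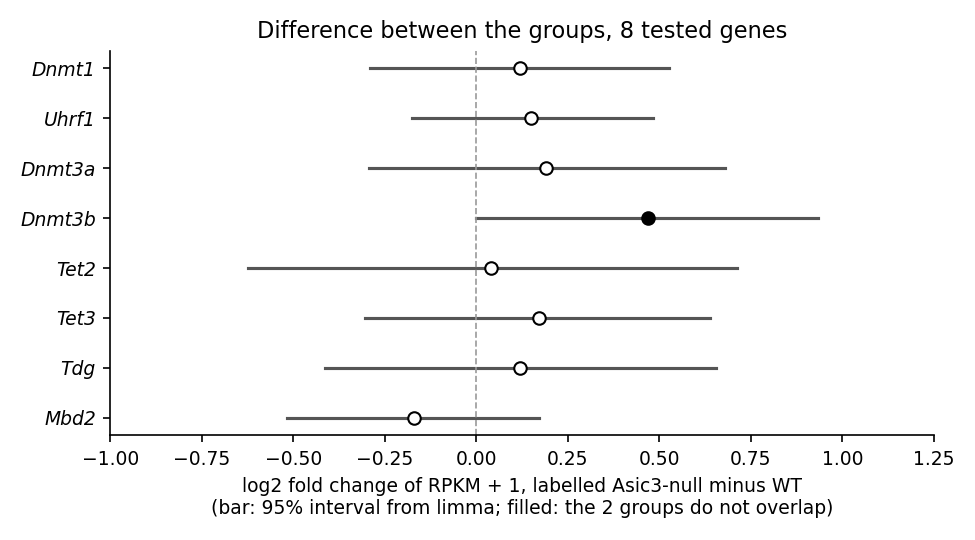
Log2 fold change of RPKM + 1, libraries labelled Asic3-null minus WT, for the 8 tested genes, with 95% intervals from limma over 3 libraries per group (filled point, groups without overlap). All 8 intervals include 0, and the estimates run from -0.17 for Mbd2 to 0.47 for Dnmt3b.

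Dnmt1 (Entrez 13433, chr9:20907206-20959888 of GRCm38.p6), the maintenance methyltransferase, had 58.5, 74.1 and 79.0 RPKM in the libraries labelled WT and 60.5, 89.4 and 81.3 RPKM in those labelled Asic3-null. The first replicate of each group was lowest, and the groups overlapped over most of their range. Group means of 70.5 ± 10.7 and 77.0 ± 14.9 RPKM (SD, n = 3 each) were obtained, resting on 775 to 1342 reads per library. The fold of RPKM + 1 was 1.09, with a 95% interval of 0.818 to 1.44 (limma, adjusted p = 0.794). Its log2 fold change went from 0.12 to -0.01 without WT replicate 1.

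Uhrf1 (Entrez 18140, chr17:56303337-56323486), which reads hemimethylated CpG sites behind the replication fork, had 48.5, 52.6 and 53.3 RPKM against 53.4, 68.3 and 51.7 RPKM. Only Asic3-null replicate 2 stood clearly above the WT libraries. Its level averaged 51.5 ± 2.63 and 57.8 ± 9.16 RPKM (SD, n = 3 each). The fold was 1.11, with an interval of 0.886 to 1.40 (limma, adjusted p = 0.651).

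Dnmt3a (Entrez 13435, chr12:3801559-3914443), a de novo methyltransferase, had 8.16, 7.51 and 7.89 RPKM in the libraries labelled WT. The libraries labelled Asic3-null had 6.62, 10.1 and 11.2 RPKM, that is 1 value below and 2 above the WT range. The SD was 0.327 RPKM among the former and 2.41 RPKM among the latter. The fold was 1.14, with an interval of 0.816 to 1.60 (limma, adjusted p = 0.709). No read was assigned to Dnmt3aos, an antisense RNA within the gene. Without strand, reads on any stretch that it shares with the exons of Dnmt3a could not be told apart. Whether there is such a stretch was not examined.

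Dnmt3b (Entrez 13436, chr2:153649411-153687730), the other de novo enzyme, was the single member whose groups did not overlap. It had 4.29, 5.47 and 6.84 RPKM in the libraries labelled WT and 8.49, 7.77 and 7.49 RPKM in those labelled Asic3-null. Each Asic3-null library thus lay above each WT library, as did those of 11.2% of all tested genes, and 22.6% did not overlap in either direction. On average it had 5.53 ± 1.28 and 7.92 ± 0.519 RPKM (SD, n = 3 each), a ratio of 1.43. The log2 fold change was 0.47 (SE 0.21), with a 95% interval of the fold from 0.998 to 1.91 (limma, unadjusted p = 0.0509, adjusted p = 0.317). The exact permutation test gave a two-sided p of 0.10, the smallest that 3 libraries against 3 allow. The values rest on 39, 46 and 70 reads against 85, 80 and 76. Over the alternatives the log2 fold change stayed between 0.32 and 0.61 and the adjusted p never came below 0.252.

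Of the TET enzymes, Tet3 (Entrez 194388, chr6:83362373-83457208) had 17.0, 11.3 and 14.2 RPKM in the libraries labelled WT and 17.8, 12.4 and 17.8 RPKM in those labelled Asic3-null. The second replicate was lowest in both groups. The fold was 1.12, with an interval of 0.809 to 1.56 (limma, adjusted p = 0.744). Tet2 (Entrez 214133, chr3:133463677-133545136) had 10.4, 13.0 and 8.88 RPKM against 13.2, 6.49 and 15.4 RPKM. The lowest and the highest value of Tet2 both came from the libraries labelled Asic3-null, 2.36-fold apart. Its fold was 1.03, with the widest interval of the 8 members, 0.649 to 1.64 (limma, adjusted p = 0.962), and its sign turned without Asic3-null replicate 1, Asic3-null replicate 3 or WT replicate 3, where the log2 fold change was -0.07, -0.18 and -0.07.

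Tet1 (Entrez 52463, chr10:62804570-62887469) was close to the limit of detection. It had 0.0338, 0.365 and 0.24 RPKM in the libraries labelled WT and 0.153, 0.209 and 0.242 RPKM in those labelled Asic3-null, from 1, 10 and 8 reads against 5, 7 and 8. Of its 39 reads, 20 came from the libraries labelled Asic3-null, 51.3% (exact 95% binomial interval 34.8% to 67.6%, for counting error only), where these libraries held 52.3% of all reads. Differences small enough to keep the share within this interval were not detectable at this depth. Without the filter on low values, limma gave Tet1 an adjusted p of 0.994.

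Tdg (Entrez 21665, chr10:82629814-82650799), the glycosylase that removes 5-formylcytosine and 5-carboxylcytosine, had 4.14, 3.03 and 4.2 RPKM against 3.22, 4.44 and 5.03 RPKM. The groups overlapped, and the fold was 1.09 with an interval of 0.751 to 1.57 (limma, adjusted p = 0.845), from 19 to 38 reads per library. Tdg-ps, a near copy of Tdg on chromosome 15, took 1 to 4 further reads per library, and how the authors' counting split reads between the copies is not given in the sources used here.

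Mbd2, which brings the NuRD repressor complex to methylated CpG sites, had 97.9, 93.8 and 95.7 RPKM in the libraries labelled WT. In those labelled Asic3-null it had 106, 74.2 and 77.8 RPKM, 1 above and 2 below the WT values. It was the only member with a log2 fold change under 0, at -0.17 (SE 0.15), and its fold was 0.886 with an interval of 0.698 to 1.12 (limma, adjusted p = 0.620). The log2 fold change was -0.33 without Asic3-null replicate 1 and -0.08 and -0.11 without Asic3-null replicates 2 and 3.

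The balance between members was then compared within each library, which removes the library's scale. Dnmt1 made up 80.0% to 85.1% of the summed level of the 3 methyltransferases, Dnmt3a 8.42% to 11.5% and Dnmt3b 6.05% to 11.2%. Tet3 made up 45.8% to 65.0% of the TET sum, Tet2 33.9% to 52.8% and Tet1 0.123% to 1.48%. Tet3 held the larger share in each library other than WT replicate 2, where Tet2 exceeded it. The ratio of Dnmt1 to the de novo pair was 4.7, 5.71 and 5.36 in the libraries labelled WT and 4.0, 5.0 and 4.34 in those labelled Asic3-null. That difference of -0.24 on the log2 scale (SE 0.13) had a two-sided p of 0.2 by exact permutation. Dnmt3a to Dnmt3b was 1.9, 1.37 and 1.15 against 0.779, 1.3 and 1.5, and Dnmt3b exceeded Dnmt3a in Asic3-null replicate 1 alone. The TET sum was 0.387, 0.284 and 0.249 of the methyltransferase sum in the libraries labelled WT and 0.412, 0.178 and 0.334 of it in those labelled Asic3-null. The groups overlapped in all 6 ratios compared. The exact permutation p lay between 0.2 and 1.0, and between 0.96 and 1.0 after Benjamini-Hochberg adjustment over the 6.

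Dnmt1, Uhrf1 and Dnmt3b were set beside genes of DNA replication, because maintenance methylation is tied to S phase. The list of 22 S phase and proliferation genes, which include the Mcm helicase subunits and ribonucleotide reductase, had 0 members called, 20 with a log2 fold change above 0 and a median of 0.26. Its median deviation from the gene means was lowest in WT replicate 1 (-0.40) and highest in Asic3-null replicate 2 (0.28) on the log2 scale. Dnmt1 was also lowest in WT replicate 1 (-0.31) and highest in Asic3-null replicate 2 (0.29), and Uhrf1 had its ends in the same libraries (-0.16 and 0.33). Dnmt1 parted from the list in Asic3-null replicate 1, at -0.27 where the list stood at 0.04. Dnmt3b was lowest in WT replicate 1 (-0.52) and highest in Asic3-null replicate 1 (0.32). Relative to the geometric mean of the 22 genes, Dnmt1 was at 1.6, 1.49 and 1.49 in the libraries labelled WT and at 1.18, 1.51 and 1.56 in those labelled Asic3-null (exact permutation test, two-sided p = 0.6). The list around the supply of 2-oxoglutarate, described below, was also lowest in WT replicate 1 (-0.14) and highest in Asic3-null replicate 2 (0.15). None of the other lists described below had both ends there. The shared ends were thus not particular to replication genes, and the share of all genes with them was not determined. These deviations describe 6 libraries, and all of them share depth and scaling.

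**Figure D3:**
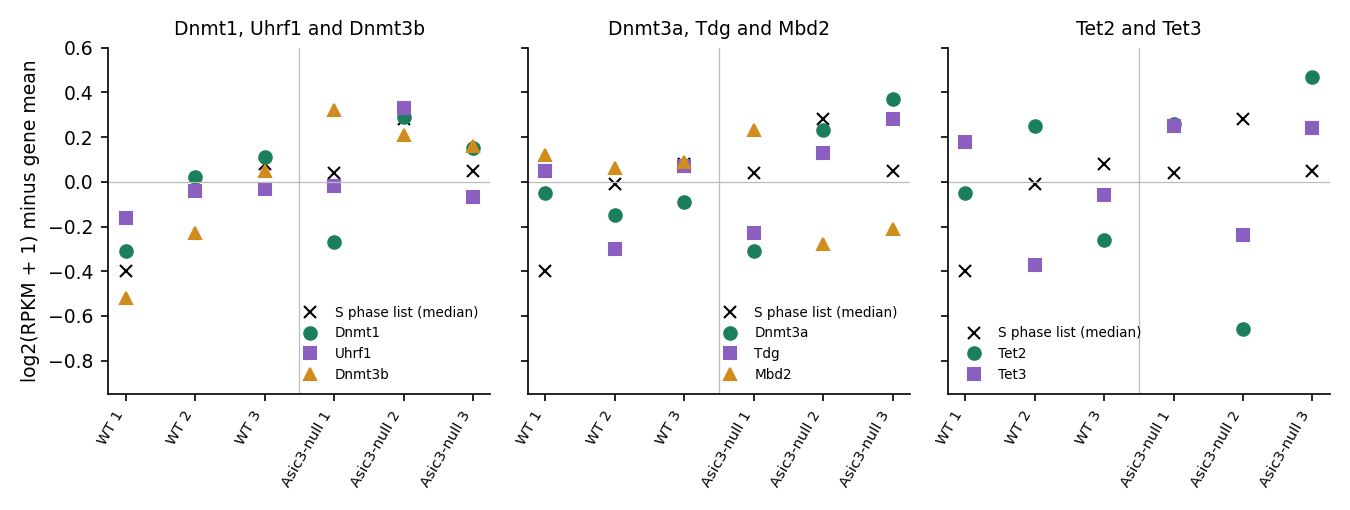
Deviation of log2(RPKM + 1) from the gene mean in each of the 6 libraries (vertical line between the groups) for 8 members and, as crosses, the median of 22 S phase genes. Dnmt1 and Uhrf1 are lowest in WT replicate 1 and highest in Asic3-null replicate 2, as the crosses are, and Tet2 has the widest swing, down to -0.66 in Asic3-null replicate 2.

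Promoter windows of 250 bases before to 50 after a start site (RefSeq, GRCm38.p6) were matched for 8 of the 9 members, 13 windows in all. In these windows 4 spellings of an E2F-type motif, the kind found at many replication genes, were searched on both strands: TTTGGCGC, TTTCCCGC, TTTCGCGC and TTTGCCGC. At least 1 of them was present in 2.26% of all 32851 windows of the same length. It was present in 2 of the 13 windows of the members, 1 of Dnmt1 and 1 of Uhrf1. Each spelling contains a CpG, and these 2 windows held 33 CpG each, where the median of all windows was 7. The 2.26% was not matched for CpG, so the comparison cannot show an excess of the motif among the members. No match overlapped another. These 2 are shown because their genes had their extremes in the same libraries as the S phase list. The Dnmt1 window lies at chr9:20952574-20952873 on the minus strand and the Uhrf1 window at chr17:56304063-56304362 on the plus strand, both printed 5′ to 3′ with the motif matches in capitals.
Dnmt1: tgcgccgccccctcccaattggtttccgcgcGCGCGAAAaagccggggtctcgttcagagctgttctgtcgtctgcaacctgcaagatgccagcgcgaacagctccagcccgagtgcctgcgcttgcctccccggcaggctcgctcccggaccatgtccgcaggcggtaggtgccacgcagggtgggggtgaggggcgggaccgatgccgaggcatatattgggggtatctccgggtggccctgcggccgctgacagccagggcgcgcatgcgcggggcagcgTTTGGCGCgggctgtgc
Uhrf1: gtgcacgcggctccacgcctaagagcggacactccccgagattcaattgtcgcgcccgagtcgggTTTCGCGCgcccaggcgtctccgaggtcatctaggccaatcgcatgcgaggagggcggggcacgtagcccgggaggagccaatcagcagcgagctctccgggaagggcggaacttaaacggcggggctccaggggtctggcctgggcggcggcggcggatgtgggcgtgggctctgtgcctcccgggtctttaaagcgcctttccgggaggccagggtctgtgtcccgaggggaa
The Dnmt1 window holds GCGCGAAA, the other strand of TTTCGCGC, 219 bases before the start and TTTGGCGC 33 bases after it, and the Uhrf1 window holds TTTCGCGC 185 bases before the start. The motif was chosen after the expression values were known, a match describes the letters and not a bound factor, and the table does not tell which of several start sites was used. The number of CpG, the dinucleotide that these enzymes act on, differed widely among the 13 windows, from 2 in another window of Dnmt1 to 57 in that of Tet2. The richest window of each gene held 17 CpG for Tet1, 22 for Tet3, 26 for Tdg, 30 for Dnmt3b, 33 for both Uhrf1 and Dnmt1, 47 for Dnmt3a and 57 for Tet2, and the median of single windows over all genes was 7.

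The genes whose pattern over the 6 libraries came closest to each member were mostly not other members. The measure was the root-mean-square difference of log2(RPKM + 1) centred on the gene mean. Uhrf1 came closest to Prps2 (0.008) and Psmb8 (0.022), Tet3 to Pot1a (0.027) and Nf1 (0.064), and Mbd2 to 2810408A11Rik (0.027) and Tfe3 (0.041). Dnmt1 came closest to Tra2b (0.041) and Aldoart2 (0.050), Dnmt3a to Tmem216 (0.049) and Dph5 (0.060), and Tdg to Nos1ap (0.038) and Pdk1 (0.050). For Dnmt3b the nearest were Kif20a and Cenpi (0.050 each), a mitotic kinesin and a kinetochore protein. Tet2 had the least close neighbours, Ralgapa1 (0.080) and Pnpla8 (0.095). Among the members themselves the smallest difference was that of Dnmt3a and Tdg, 0.115, and Dnmt1 and Uhrf1 differed by 0.162. With 12037 genes over 6 libraries, such closeness describes these libraries only.

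The genes around the members were described by lists, for which the counts stand beside the 3.35% called over all genes. Partners of the writers, among them the remodeler Hells and the cofactor Dnmt3l, had 13 of 15 genes tested, 0 called and 11 with a log2 fold change above 0, with a median of 0.13. The lowest p values were those of Cdca7l, a relative of the Hells partner Cdca7, with 49.2 ± 2.60 and 65.2 ± 9.58 RPKM (limma, adjusted p = 0.221), of Trim28, which brings Setdb1 and methyltransferases to retroelements, with 169 ± 24.8 and 211 ± 15.2 RPKM (limma, adjusted p = 0.289), and of Qser1 with 2.59 ± 0.204 and 4.12 ± 0.892 RPKM (limma, adjusted p = 0.337; SD, n = 3 each). The groups did not overlap for 4 of the 13 tested partners, these 3 among them, beside 22.6% of all tested genes. Zfp57 and Dppa3 had no read.

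A list of other MBD-family and ZBTB proteins, of which several but not all bind methylated CpG, had 9 of 9 tested, 0 called, 7 above 0 and a median of 0.10. Mbd3 had 130 ± 15.4 and 163 ± 25.1 RPKM, Mbd6 70.1 ± 15.7 and 55.5 ± 4.11 RPKM, and Zbtb38 11 ± 2.56 and 14.2 ± 3.88 RPKM (SD, n = 3 each, WT first). Their adjusted p values from limma were 0.332, 0.433 and 0.556. The NuRD subunits, the repressor complex that contains Mbd2 or Mbd3, had 12 of 12 tested, 0 called, 11 above 0 and a median of 0.26. The helicase gene Chd3 had 7.40, 8.66 and 5.41 RPKM against 11.3, 9.19 and 11.5 RPKM (log2 fold change 0.53, limma adjusted p = 0.263). Mta2 had 110 ± 7.78 and 135 ± 20.7 RPKM and the histone chaperone Rbbp7 74.8 ± 23.2 and 96.5 ± 9.01 RPKM, with adjusted p values from limma of 0.357 and 0.381.

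Genes of demethylation and base excision repair had 16 of 19 tested, 0 called, 9 above 0 and a median of 0.03. Hmces, which shields abasic sites in single-stranded DNA, had 17.9, 31.7 and 35.1 RPKM in the libraries labelled WT and 42.9, 43.8 and 43.9 RPKM in those labelled Asic3-null. Its groups did not overlap, and the WT libraries spread far more than the others (log2 fold change 0.66, limma adjusted p = 0.205). Without WT replicate 1 the log2 fold change was 0.37. Cxxc5, a CpG-binding protein, had 1.99 ± 1.12 and 3.69 ± 0.774 RPKM, and the glycosylase Neil1 5.68 ± 1.55 and 3.63 ± 0.591 RPKM, with adjusted p values from limma of 0.328 and 0.337. The methyl donor cycle, which supplies S-adenosylmethionine, had 16 of 18 tested, 0 called, 13 above 0 and a median of 0.16. Ahcyl1 had 28.8 ± 1.67 and 36.1 ± 3.28 RPKM, and the synthetase Mat2a 61.5 ± 13.8 and 43.3 ± 12.6 RPKM (limma, adjusted p = 0.312 and 0.351).

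A list around the supply of 2-oxoglutarate, the cosubstrate of the TET enzymes, had 10 of 10 genes tested, 0 called, 6 above 0 and a median of 0.08. The groups did not overlap for 5 of the 10, beside 22.6% of all tested genes. Idh1, the cytosolic isocitrate dehydrogenase, had 25.4, 28.0 and 27.7 RPKM in the libraries labelled WT and 17.0, 15.3 and 23.4 RPKM in those labelled Asic3-null (log2 fold change -0.54, SE 0.18, limma adjusted p = 0.181). Idh2, its mitochondrial counterpart, had 98.0 ± 7.79 and 126 ± 25.7 RPKM (log2 fold change 0.35, limma adjusted p = 0.329). Without Asic3-null replicate 2 the log2 fold change of Idh2 was 0.19. In the S phase list the lowest p values were those of Cdk1, with 29.9, 40.2 and 41.5 RPKM against 57.1, 49.0 and 56.4 RPKM (limma, adjusted p = 0.130), of Rrm1 with 68.4 ± 22.2 and 96.3 ± 8.73 RPKM (limma, adjusted p = 0.298) and of Gins2 with 30.8 ± 9.37 and 42.2 ± 8.66 RPKM (limma, adjusted p = 0.356). None of the genes named from these 7 lists passed the test. An unadjusted p under 0.05 from limma was seen for 2 genes each among the partners, the cofactor list and the S phase list. It was seen for 1 each among the NuRD, repair and methyl donor genes and for 0 of the MBD and ZBTB list. Over all tested genes the share was 15.9%. Limma-voom on the recovered reads called 0 in each list.

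The summed levels of the lists, in which the most abundant genes weigh most, were compared last. In the libraries labelled WT and Asic3-null they were 513 to 553 and 581 to 613 RPKM for the partners, 276 RPKM in every WT library and 295 to 314 RPKM for the MBD and ZBTB list, and 457 to 580 and 591 to 649 RPKM for NuRD, without overlap. They overlapped for the other 4 lists, with 457 to 661 and 472 to 573 RPKM for repair, 377 to 449 and 407 to 561 RPKM for the methyl donor cycle, 501 to 580 and 523 to 630 RPKM for the cofactor list, and 1130 to 1680 and 1580 to 1880 RPKM for S phase. These sums were not tested. Gene by gene, the groups were separate for 4 of 13 partners and 3 of 12 NuRD subunits, beside 22.6% of all tested genes. They were separate for 0 of the 9 MBD and ZBTB genes.

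**Figure D4:**
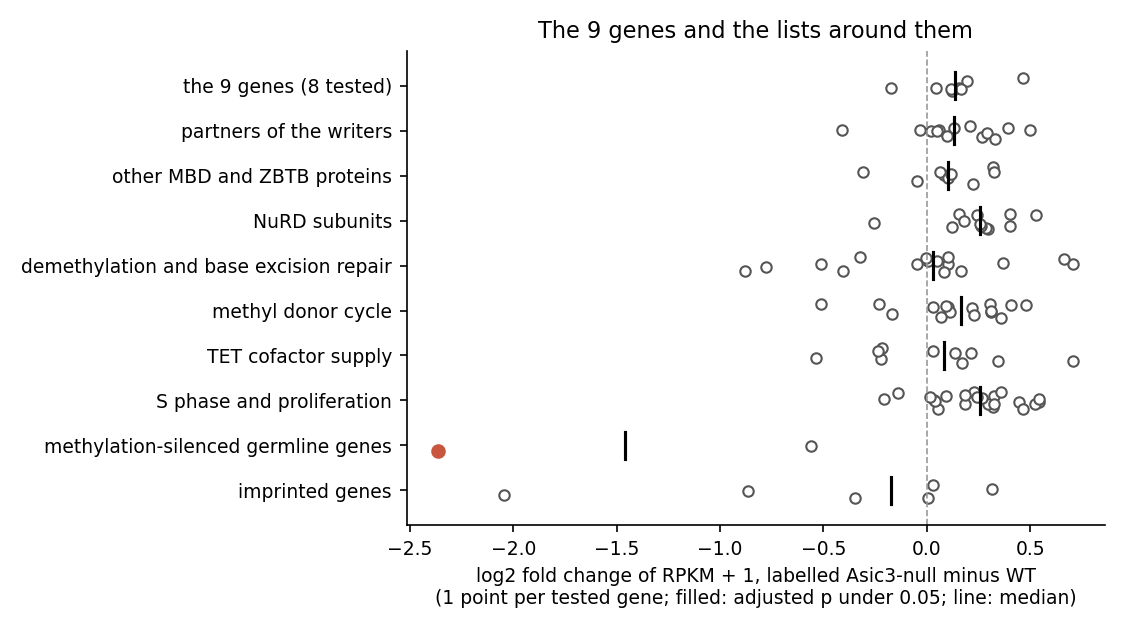
Log2 fold change of RPKM + 1, libraries labelled Asic3-null minus WT, for each tested gene of the 9 members and of 9 lists around them (line, median of the list; filled point, adjusted p under 0.05 from limma). The medians of the members and of the first 7 lists lie between 0.03 and 0.26 with no gene called, and the 1 filled point is Dpep3 of the germline list at -2.36.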

How the data were processed

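Per the submitters' processing notes, the authors called bases with CASAVA 1.8.2 and aligned reads to GRCm38 with TopHat2 2.0.12. They deposited RPKM values per Entrez gene in 1 table of 6 libraries, and the counting tool is not given in the sources used here. Whole reads were recovered from the RPKM values within 0.0001 reads for all 16825 genes above 0, and tested genes had a median of 83.3 reads per library. Symbols came from RefSeq (25275 of 27179 rows) and GENCODE (18).

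The 12037 genes whose mean reached 1 RPKM were compared by limma 3.58.1 (R 4.3.3) after taking log2(RPKM + 1), with an intensity trend, Benjamini-Hochberg adjustment and a threshold of 0.05. Folds are on the RPKM + 1 scale, which understates the change of low genes. Single values were compared by exact permutation, two-sided. The 14 alternatives were a pseudocount of 0.1, no filter, a mean of at least 5, median-ratio and quantile scaling, no trend, voom on recovered reads, a replicate block and each library left out in turn. The steps were tested on simulated data.

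The members and lists were chosen with earlier results of these data known. Named genes are the members, from each list the 3 genes lowest in p, its called genes where at most 5, and the 2 nearest in pattern to each member, some of which are not reported here. Asic3, Xist and marker lists are given as checks. Meis1, Hoxa9, Fcgr3, Cd34, Hells, Dnmt3l, Cd79b, Meg3, Rian, the genes with no read, Dnmt3aos and Tdg-ps were named outside this rule, after their values were seen. The labels give no batch.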

Additional observations from a re-analysis of the deposited data

How the results depend on the processing

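No member was called under any of the 14 alternatives. Of 111 recomputed member values, 4 changed sign, in 2 members. With libraries left out in turn, the log2 fold change ran from -0.01 to 0.28 for Dnmt1, negative without WT replicate 1, and from -0.18 to 0.39 for Tet2. It ran from 0.06 to 0.40 for Dnmt3a, 0.32 to 0.61 for Dnmt3b, 0.02 to 0.33 for Tet3, 0.03 to 0.23 for Uhrf1, -0.33 to -0.08 for Mbd2 and 0.0 to 0.27 for Tdg. The log2 ratio of Dnmt1 to Uhrf1 ran from -0.16 to 0.08, turning without Asic3-null replicate 1 or WT replicate 3, that of Tet2 to Tet3 from -0.29 to 0.16, turning without replicate 2 of either group, that of the TET to the methyltransferase sum from -0.30 to 0.30, turning without Asic3-null replicate 2 or WT replicate 1, and that of Dnmt1 to the S phase mean from -0.19 to 0.01, turning without Asic3-null replicate 1. Over all tested genes the count called was 403, 246 with the replicate block and 203 to 293 with a library left out. The called genes of the pathway lists went from 1 (Dpep3) to 0 with no filter, with a mean RPKM of at least 5, where Dpep3 was not tested, and with no intensity trend, and were 0 to 1 with a library left out. Same-numbered libraries did not deviate together (correlations of 0.0591, -0.0593 and -0.123 over genes), so the block rests on shared numbers only, and it changed no call among the members. The causes of these shifts were not tested. Depth limits Tet1, Tdg and Dnmt3b most, with 39, 175 and 396 reads over the 6 libraries.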

Other observations

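Germline genes that are known to be kept silent by promoter methylation in somatic cells were at or near 0 in most cases. Of 16 such genes, 9 had no read in any library, among them Dazl, Ddx4 and Sycp1. The other 7 had 1 to 83 reads over the 6 libraries, and 2 of them passed the minimum level. Dpep3, a dipeptidase gene best known from testis, had 11.3, 9.17 and 2.01 RPKM in the libraries labelled WT and 0.771, 0.25 and 0.253 RPKM in those labelled Asic3-null, from 40, 30 and 8 reads against 3, 1 and 1. It was called lower (log2 fold change -2.36, limma adjusted p = 0.0386). Over the alternatives its log2 fold change ran from -3.67 to -1.98. Its call did not hold when any 1 of the Asic3-null libraries, WT replicate 1 or WT replicate 2 was left out (limma adjusted p = 0.0761, 0.12, 0.126, 0.139 and 0.131), with no filter (0.0839) and with no intensity trend (0.0597), and it held with voom on the reads (0.0478). The neutrophil granule genes were lower in the same libraries, and their part in the Dpep3 difference was not tested. Sycp3, of the synaptonemal complex, had 1.60 ± 1.39 and 0.633 ± 0.219 RPKM (SD, n = 3 each, limma adjusted p = 0.533).

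Imprinted genes, whose expression from 1 parental copy depends on methylation set by Dnmt3a and Dnmt3l and kept by Dnmt1, had 6 of 21 tested. Of these 6, 0 were called with limma and 1 had an unadjusted p under 0.05, beside 15.9% of all tested genes. The log2 fold change was above 0 for 3 of the 6, beside 54.5% of all tested genes. Voom on the recovered reads also called 0. H19, Peg3, Snrpn, Airn, Grb10 and Sgce had no read in any library. The groups did not overlap for 4 of the 6 tested genes, Cdkn1c, Gnas and Dlk1 among them, beside 22.6% of all tested genes. Cdkn1c, a cyclin-dependent kinase inhibitor, had 2.45, 1.85 and 2.61 RPKM in the libraries labelled WT. It had 0.222, 1.08 and 1.32 RPKM in those labelled Asic3-null (log2 fold change -0.86, limma adjusted p = 0.236). Gnas had 102 ± 15.5 and 127 ± 14.6 RPKM (SD, n = 3 each, limma adjusted p = 0.349). Dlk1, a fetal and progenitor cell surface protein, had 373 reads (39.8 RPKM) in WT replicate 2. It had 2 and 5 reads in the other 2 libraries labelled WT and 0 in each of the 3 labelled Asic3-null. The level of Dlk1 thus rests on 1 library (limma adjusted p = 0.421). Meg3 and Rian, of the same list but under the minimum level, had 54 of 55 and 15 of 15 reads in WT replicate 2.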
